A study of Mus musculus with 15 samples.

Results

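Among 15 spleen tumours of mice with acute promyelocytic leukaemia (APL), 4 carried the genes of chromosome 15 at a raised level as a body and 5 carried them at a lowered level, and these 9 tumours are compared here. APL is a leukaemia of granulocyte precursors arrested as promyelocytes. All 15 tumours belonged to 1 labelled group: spleen with APL, from Bl/6 Taconic mice, total RNA, 1 Affymetrix Mouse Exon 1.0 ST array per tumour. The labels gave no transgene, treatment, age or karyotype, no healthy spleen was analysed here, and the split between high and low tumours was made from the measured values and not from the labels. Whole spleen was sampled, so leukaemic cells and resident spleen cells were read together. Whether each tumour is a separate animal is not given in the labels, and p-values cover only the spread between these arrays, which may be technical.

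The groups were chosen by the measured levels of chromosome 15 genes, as follows. For each gene the log2 intensity was the median over its probesets, and genes with a mean over the 15 tumours above the 40th percentile of all genes (6.41) counted as detected. Of 631 chromosome 15 genes on the array, 422 were detected, out of 9766 detected genes in all. The chromosome 15 value of a tumour is the median deviation of those 422 genes from their 15-tumour median, relative to the same median over all detected genes of that tumour. The high group held values over 0.05 (tumor_26, tumor_9495, tumor_9492 and tumor_9520), and the low group held values under -0.05 (tumor_36, tumor_9509, tumor_9523, tumor_31 and tumor_9500). One further array, tumor_9514, had a value of -0.108, under the lower limit, but was not among the 5 tumours named as low; it was kept out of the groups and added to the low group as an alternative. Because chromosome 15 genes chose the groups, everything said of them is a description. They entered the fit over all detected genes and its adjustment, but no p-value of theirs is used.

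Mouse chromosome 15 carries Myc, the transcription factor that drives ribosome production and cell growth, and the genes of the common beta subunit of the receptors for GM-CSF, interleukin-3 and interleukin-5. Extra copies of this chromosome are a known recurrent change in mouse models of APL. A change in the number of copies of a chromosome usually moves the RNA of many of its genes by small amounts in the same direction. The arrays measured RNA alone, and copy number was not measured.

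The 4 high tumours had chromosome 15 values of 0.135 in tumor_26, 0.117 in tumor_9495, 0.0933 in tumor_9492 and 0.0628 in tumor_9520. The 5 low tumours had -0.141 in tumor_36, -0.123 in tumor_9509, -0.0988 in tumor_9523, -0.0764 in tumor_31 and -0.0734 in tumor_9500. The means were 0.102 ± 0.0313 (SD, n = 4) and -0.103 ± 0.0295 (SD, n = 5), so the groups lay 0.205 apart on the log2 scale, or 1.15-fold. Just inside the limits were tumor_9520 at 0.0628 and tumor_9500 at -0.0734, and the nearest tumours outside them were tumor_33 at 0.0261 and tumor_9529 at -0.0067. The remaining tumours between the limits were tumor_9504 at 0.0185, tumor_9508 at 0.0178 and tumor_29 at 0. In the high tumours 63.5% to 69.7% of the 422 genes had a deviation above the tumour's median deviation over all genes, against 24.9% to 40.5% in the low tumours.

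A pair of arrays differed from the rest, tumor_9509 and tumor_9514. Over detected genes their correlation with each other was 0.949 and their correlations with the remaining arrays reached at most 0.8995, while the closest match of each remaining array lay between 0.948 and 0.970. Their median intensities were both 108, against 120 to 129 on the other arrays, and their detected genes had median deviations of -0.229 and -0.171. The low group therefore holds 1 of this pair, tumor_9509, and the high group none. The median of a list is also given without tumor_9509 where leaving it out moves that median by more than 1.5 times. Differences of single genes and of other chromosomes are given with tumor_9509 only. Several of them, such as those of Myc, Eif3h and Rpl3, are smaller without it.

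**Figure D1:**
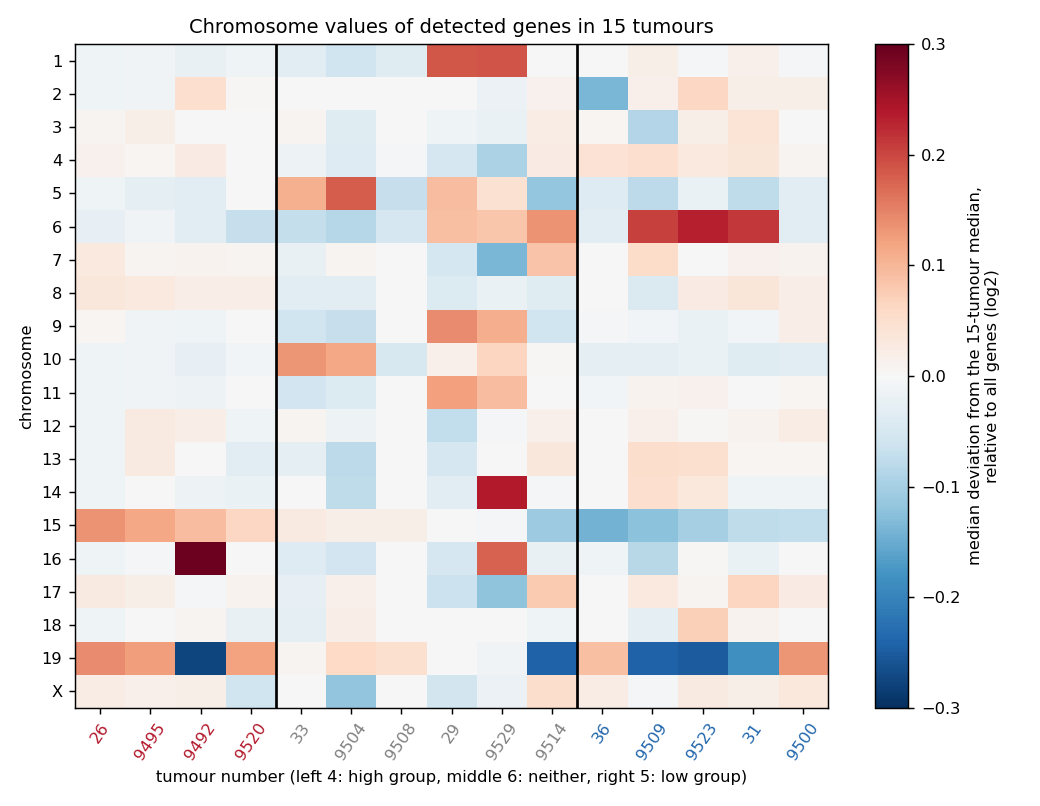
Value of each chromosome (vertical axis) in each of the 15 tumours (horizontal axis), defined for chromosome 15 in the text and computed alike for every chromosome, in log2 units on a colour scale from -0.3 to 0.3. The 4 high tumours are on the left, the 6 in neither group in the middle and the 5 low tumours on the right; the chromosome 15 values chose the groups and run from 0.135 down to -0.141, and chromosomes 6, 16 and 19 differ among tumours within a group.

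Most genes of chromosome 15 shared the shift, and it was small for most of them. Over the 422 genes the median difference between group means was 0.29 (1.23-fold), with quartiles of 0.0817 and 0.478, and 354 genes (83.9%) were higher in the high tumours. Over all 9766 detected genes 5864 had the higher mean in the high tumours. Off chromosome 15 the median difference was 0.0425 and 59.0% of 9344 genes were higher. On chromosome 15, 91 genes (21.6%) had every high tumour above every low tumour, against 1.82% of all detected genes and 0.931% of those off the chromosome. In the opposite direction only Ext1 had every high tumour below every low tumour, against 1.03% of all detected genes. A difference of more than 1.5-fold upward was seen for 58 chromosome 15 genes (13.7%), 35 of them without overlap, and for 1.19% of the genes elsewhere. Without tumor_9509 the median difference was 0.224 on chromosome 15 and -0.0191 elsewhere. With tumor_9514 added to the low group it was 0.305 and 0.0694. Under that grouping 83 chromosome 15 genes did not overlap, but its share over all detected genes is not given. Fewer genes separate in a larger group by size alone, so 83 cannot be set against 91.

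**Figure D2:**
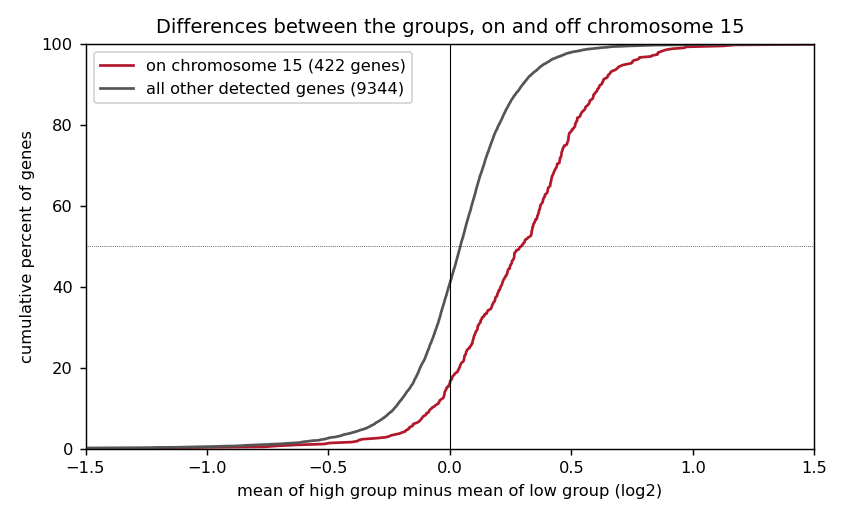
Cumulative percent of genes (vertical axis) against the mean of the high group minus the mean of the low group in log2 units (horizontal axis), for 422 detected genes on chromosome 15 and 9344 other detected genes. The dotted line marks the median, which falls at 0.294 on chromosome 15 and 0.0425 elsewhere, and the whole curve of chromosome 15 genes lies to the right except in its lowest tail.

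The difference was larger among brighter genes. Split into 5 equal classes by their mean level, the chromosome 15 genes had median differences of 0.0976, 0.128, 0.333, 0.409 and 0.451 from the dimmest to the brightest. Genes in which the groups did not overlap made up 2.35% of the dimmest class and 45.2% of the brightest. Genes of the same brightness off the chromosome had medians between 0.0190 and 0.0820, and at most 1.41% of them did not overlap. The 209 chromosome 15 genes under the detection limit had a median difference of 0.0759, with 135 of them higher, against 0.0182 for dim genes elsewhere.

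The shift was present in every stretch of the chromosome. The 422 genes were put in gene order and divided into 5 blocks of 84 or 85 genes. From the first block (Selenop to Wdyhv1) to the last (Adcy6 to Ppp1r1a) the groups differed by 0.290, 0.219, 0.224, 0.188 and 0.166, and between 81.0% and 88.2% of the genes of a block were higher in the high tumours. Genes without overlap were spread over all 5 blocks, 24, 15, 20, 15 and 17 of them. In a window of 31 genes moved along the order, the median of the high tumours lay above 0 in 392 of 392 windows for tumor_26, 391 for tumor_9495, 380 for tumor_9492 and 389 for tumor_9520. For the low tumours the same count was 0 for tumor_36, 0 for tumor_9523, 11 for tumor_9500, 13 for tumor_31 and 63 for tumor_9509. Tumor_9509 was the uneven one, at -0.305 in the first block and -0.0234 in the last. Tumor_9514, in neither group, was at -0.224 in the first block and 0.0288 in the last.

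**Figure D3:**
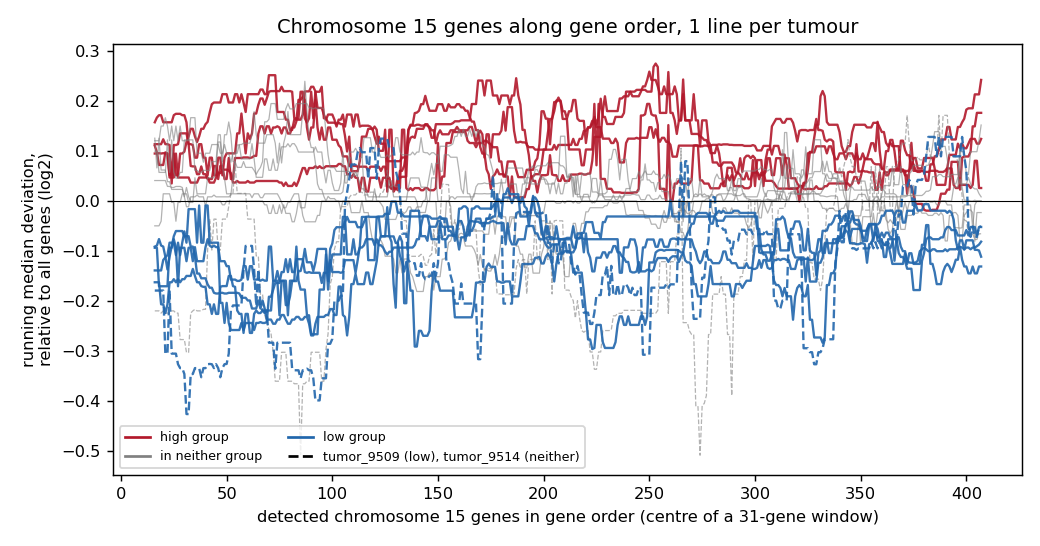
Running median over 31 detected chromosome 15 genes in gene order (horizontal axis, position of the window's centre) of each gene's deviation, set against the tumour's all-gene median (vertical axis, log2), 1 line per tumour. The 4 high tumours stay above 0 over nearly the whole order and tumor_36 and tumor_9523 below it throughout, while the dashed lines of tumor_9509 and tumor_9514 swing above and below.

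Over the 91 genes without overlap, which were picked because the groups separate in them, the 5 tumours between the limits were below every high tumour in 48 to 63 genes and above every low tumour in 52 to 62. Tumor_9514 was below every high tumour in 83 of them and above every low tumour in 12.

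Values of single genes below are log2 intensities in the order tumor_26, tumor_9495, tumor_9492 and tumor_9520 for the high group and tumor_36, tumor_9509, tumor_9523, tumor_31 and tumor_9500 for the low group. The genes came from 6 lists of chromosome 15 genes by role and from a rule for the largest differences; the lists were drawn up with earlier results of these data known.

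Myc itself overlapped between the groups. It read 11.03, 11.22, 10.78 and 11.57 in the high tumours and 10.51, 9.52, 11.18, 10.89 and 10.99 in the low tumours, a difference in means of 0.53. The lowest value was that of tumor_9509, and tumor_9523 in the low group was above 2 of the 4 high tumours. Among the 6 tumours in neither group, Myc was highest, at 11.77, in tumor_29 and lowest, at 9.15, in tumor_9514.

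Other growth genes of the same list did separate the groups. Of 23 detected members, 19 were higher (82.6%, against 83.9% of the chromosome), with a median difference of 0.45 against 0.294 for the whole chromosome, and 12 did not overlap (Rad21, Atad2, Nsmce2, Derl1, Asap1, Ywhaz, Pabpc1, Eif3e, Eif3h, Mrpl13, Zhx1 and Tatdn1). That is 52.2% of the list, against 21.6% of the chromosome and 1.82% of all detected genes. The list was not matched for brightness. On this chromosome the share without overlap was 28.6% in the class below the brightest and 45.2% in the brightest. Rad21, a subunit of the cohesin ring that holds sister chromatids together, read 11.24, 11.27, 11.40 and 11.02 in the high tumours against 10.86, 9.83, 10.65, 10.92 and 10.83. Its lowest high tumour and highest low tumour were 11.02 and 10.92, a narrow gap. Atad2, a bromodomain ATPase of chromatin, read 8.85, 8.97, 9.12 and 8.49 against 8.43, 7.84, 8.15, 8.18 and 8.30. Asap1, a GTPase-activating protein of Arf at the cell cortex, read 10.01, 9.79, 10.08 and 9.68 against 9.46, 8.35, 9.24, 9.07 and 9.43. In all 3 genes tumor_9520 was the lowest of the high group and tumor_9509 the lowest of the low group.

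Some of these genes serve translation. Pabpc1, the cytoplasmic poly(A)-binding protein, read 12.10, 11.84, 11.90 and 11.94 in the high tumours and 11.63, 11.58, 11.60, 11.67 and 11.55 in the low tumours. Here the 5 low tumours lay within 0.12 of each other, tumor_9509 included. Eif3h, Eif3e and Eif3l, subunits of the eIF3 complex that brings the ribosome to messenger RNA, were higher by 0.46, 0.36 and 0.88, each without overlap. Mrpl13, a mitochondrial ribosomal protein, read 8.80, 8.81, 8.96 and 8.57 against 7.72, 7.25, 8.08, 8.35 and 8.26. The 6 genes of the ribosomal list were all higher, with a median of 0.39, but none separated the groups and the median was 0.16 without tumor_9509. Rpl37, one of the brightest genes of the chromosome, read 12.58, 12.65, 12.34 and 12.51 against 12.26, 12.44, 12.37, 12.52 and 12.44, a difference of 0.11. Rpl3 differed by 0.45, with tumor_9509 at 9.78 and the other low tumours between 10.67 and 11.66.

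Skp2, the F-box protein that marks the CDK inhibitor p27 for degradation, read 7.85, 7.53, 8.12 and 7.57 in the high tumours against 7.21, 6.79, 7.47, 7.19 and 7.04. Espl1, the separase that cuts cohesin at anaphase, read 7.61, 7.67, 7.65 and 7.66 against 7.02, 7.05, 7.36, 7.33 and 7.17. The high tumours were nearly level for Espl1, and the low tumours spread over 0.34. Of 25 detected chromatin and transcription factor genes, 21 were higher (median 0.33, and 0.215 without tumor_9509) and 6 (24.0%) did not overlap: Pphln1, Ddx23, Maf1, Phf5a, Atf1 and Hnrnpa1 (read by 1 probeset). Both shares are close to those of the chromosome as a whole, 83.9% and 21.6%. Pphln1, a partner of the HUSH silencing complex, read 9.60, 9.64, 9.93 and 9.65 against 8.79, 8.32, 9.08, 8.78 and 8.98. The gap between the groups for Pphln1, from 9.08 to 9.60, was wider than the range of the high tumours. Ep300, the histone acetyltransferase p300, overlapped: it read 8.80, 8.91, 9.03 and 8.79 against 8.53, 8.06, 8.44, 9.06 and 8.64. Rarg, a retinoic acid receptor, differed by 0.02.

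Of 26 signalling and survival genes, 24 were higher (median 0.38), and 4 did not overlap (15.4%, against 21.6% of the chromosome): Tmbim6, Skp2, Prkaa1 and Nup155. Tmbim6, an inhibitor of cell death in the endoplasmic reticulum, read 10.70, 10.48, 10.82 and 10.77 against 10.18, 10.21, 10.10, 10.39 and 10.37. Prkaa1, a catalytic subunit of AMP-activated kinase, was higher by 0.43. Pim3, a survival kinase, differed by 0.13 and overlapped, as did Bik, a death-promoting Bcl2 family gene, at 0.06. The adaptor gene Dab2 had a difference of 1.13 but ran from 5.13 in tumor_9492 to 9.65 in tumor_9520 within the high group.

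Further genes without overlap, most of them picked after their values were seen, follow. Samm50 and Tomm22, parts of the outer-membrane machinery that sorts and imports proteins, were higher by 0.89 and 0.65. Tomm22 read 9.81, 9.67, 9.75 and 9.81 in the high tumours and 9.06, 9.22, 8.96, 9.21 and 9.12 in the low tumours, with 0.45 between the lowest high and the highest low value. Cyc1, cytochrome c1 of respiratory complex III, was higher by 0.62. Copz1, a coat protein of Golgi vesicles, read 9.55, 9.13, 9.41 and 9.34 against 8.46, 8.31, 8.78, 8.64 and 8.74. Cby1, an inhibitor of beta-catenin signalling, read 8.57, 8.59, 8.79 and 8.59 against 7.85, 7.70, 8.10, 7.97 and 7.79. In Tomm22 tumor_9509 was the highest of the low tumours, and in Copz1 and Cby1 the lowest.

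The largest difference of the chromosome was that of Dmc1, a recombinase of meiosis, at 1.66. It read 9.75, 9.57, 8.91 and 9.57 in the high tumours and 8.82, 7.44, 6.52, 7.86 and 8.31 in the low tumours. Within the low group the values ranged over 2.30, and the upper end came within 0.087 of tumor_9492. Next came Lrp12 at 1.17, Dab2 at 1.13, Rida at 0.97 and Otulinl at 0.96, all with overlap. Then followed Pphln1, Samm50, Eif3l, Ano6, St13, Pmm1 and Mrpl13, at 0.85 to 0.91, all without overlap.

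Cytokine receptor and immune genes had a smaller median difference than the chromosome as a whole. Of 13 detected cytokine receptor and immune genes, 9 were higher with a median of 0.095, which was 0.0186 without tumor_9509, and none separated the groups. Nfam1 had the largest upward difference of the list, 0.52, and Fyb the largest downward, -0.52. Nfam1 read 7.92 to 8.19 in the high tumours and overlapped only through tumor_31, at 8.36. Apobec3 was higher by 0.36 with overlap. Csf2rb, the common beta subunit, read 9.98, 9.67, 9.58 and 9.52 in the high tumours and 9.52, 7.13, 9.82, 9.78 and 9.95 in the low tumours. Its difference in means of 0.45 rested on tumor_9509, since the other 4 low tumours, at 9.52 to 9.95, covered nearly the same range as the high group. Csf2rb2, the mouse paralogue of Csf2rb, differed by -0.08. These paralogues are close in sequence, and their probes could share signal. Rac2, a GTPase of the neutrophil oxidase and of migration, differed by 0.14, and Ncf4, an oxidase subunit, by -0.25. Lgals1, a galectin among the brightest genes of the chromosome, differed by 0.05. Il7r was under the detection limit.

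The Ly6 genes, small GPI-anchored surface proteins in a cluster of similar sequence, went in both directions. Of 9 detected members 4 were higher and 5 lower, with a median of -0.18 that was -0.0078 without tumor_9509. Ly6e, the brightest of them, read 12.60, 12.60, 11.94 and 12.37 against 12.21, 11.36, 12.15, 11.81 and 12.47. Ly6k had the lowest difference of the chromosome, -1.22, and read 10.72 and 11.01 in tumor_36 and tumor_9509 but 6.44 to 7.13 in the other low tumours and 6.76 to 7.65 in the high tumours. Ly6a, also known as Sca-1, differed by -0.64, with its highest value, 9.11, in tumor_31. Because cluster members resemble each other, their probes could share signal.

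Of the genes lower in the high tumours, Ext1, an enzyme of heparan sulphate synthesis, read 5.74, 6.67, 6.72 and 5.86 in the high tumours and 7.04, 6.72, 7.58, 6.90 and 6.84 in the low tumours. The highest high and the lowest low tumour both rounded to 6.72. Lrrk2 (-0.71), Fyb (-0.52) and Ropn1l (-0.50) followed, all with overlap, and Lrrk2 spread from 5.15 to 8.28 within the low group.

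**Figure D4:**
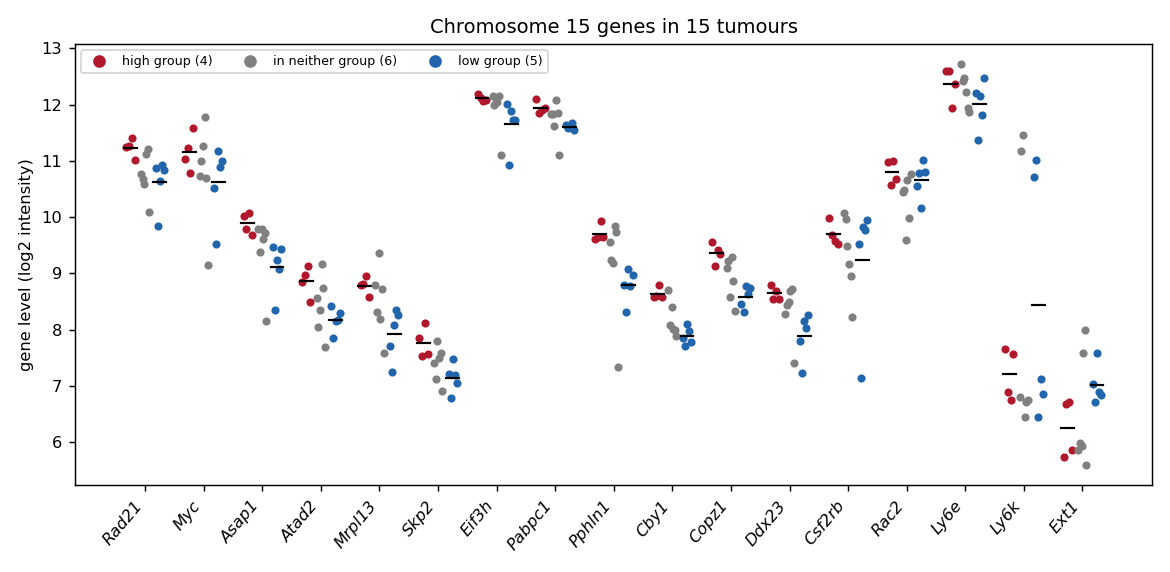
Level (log2 intensity, vertical axis) of 17 chromosome 15 genes in 15 tumours, 1 point per tumour, with the 4 high tumours in red, the 6 in neither group in grey, the 5 low tumours in blue and short bars at the means of the high and low groups. Rad21, Asap1, Pphln1, Cby1, Copz1 and Ddx23 separate the high from the low tumours, Myc, Csf2rb, Rac2 and Ly6e overlap, and Ly6k and Ext1 have the lower mean in the high group.

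Off chromosome 15, no gene passed the test, and among those closest to it were receptor genes of mature neutrophils with lower values in the chromosome 15 high tumours. With limma over all 9766 detected genes (4 against 5 tumours, Benjamini-Hochberg adjusted p under 0.05), 0 genes (0.00%) passed. At an unadjusted p under 0.05, 3.90% of all detected genes were higher in the high tumours and 2.62% lower; off the chromosome these were 234 and 254 genes, and the smallest adjusted p was 0.129. The genes named next did not pass the threshold, and each is given as its values. Single choices moved this count: 3 genes passed with arrays centred (Ccr1, Cxcr2 and Plbd1, limma adjusted p = 0.0461), 3 without tumor_36 (Ccr1, Clec4d and Prps1l1, 0.0195), 1 without tumor_9523 (Fpr2, 0.0159) and 1 without tumor_9492 (Akr1e1, 0.0383).

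Fpr2, a receptor for formylated peptides of bacteria, read 8.01, 8.45, 8.01 and 7.67 in the high tumours and 10.07, 10.57, 8.92, 10.66 and 9.86 in the low tumours, a difference of -1.98 ± 0.32 (SE, limma adjusted p = 0.129). Cxcr2, the chemokine receptor that draws neutrophils out of the marrow, read 9.14, 9.05, 8.98 and 8.96 against 10.57, 10.09, 10.09, 11.35 and 11.47 (-1.68 ± 0.29, limma adjusted p = 0.137). The high tumours lay within 0.18 of each other for Cxcr2, and every low tumour was at least 0.95 above them. Ccr1, another chemokine receptor, read 5.36, 5.90, 5.71 and 4.78 against 6.61, 7.87, 7.60, 7.73 and 8.45 (-2.21 ± 0.34, limma adjusted p = 0.129), with the high tumours under the detection limit used for gene means. Plbd1, a phospholipase-like protein of myeloid cells on chromosome 6, read 7.65, 8.07, 8.76 and 8.06 against 9.61, 10.01, 9.36, 10.30 and 10.54 (-1.83 ± 0.27, limma adjusted p = 0.129). Klrb1f, Klra2, P2ry14 and Il18rap differed by -1.45, -1.76, -1.72 and -0.85, each without overlap, and Klra2 was under the detection limit in every high tumour. Chromosome 6 was raised in tumor_9509, tumor_9523 and tumor_31 of the low group. Its part in the differences of Plbd1 and of any other gene it carries was not tested.

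All 10 detected mature neutrophil genes had the lower mean in the high tumours, with a median difference of -1.13 against 0.0482 over all detected genes. In 6 of them (Cxcr2, Fpr1, Fpr2, Retnlg, Clec4d and Trem1) every high tumour was below every low tumour, against 1.03% of all detected genes, and 0 of the 10 passed the adjusted threshold. Fpr1, read by 1 probeset, was at 8.22, 8.25, 9.11 and 7.37 against 9.45, 11.50, 9.59, 11.12 and 10.76. Retnlg, a resistin-like protein of neutrophils, was at 11.30, 11.56, 12.01 and 11.58 against 12.25, 12.69, 12.22, 12.59 and 12.44. The summed intensity of the list was 6354 to 8825 in the high tumours and 11614 to 17778 in the low tumours, without overlap. The median difference was -1.27 without tumor_9509, -1.06 with tumor_9514 in the low group and -1.37 within the tumours that have a 4-digit number. In whole spleen, fewer neutrophils and less of these RNAs per cell cannot be told apart. The part of mature neutrophils in the chromosome 15 differences was not tested.

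Csf3r, the receptor for G-CSF, and Cxcr4, which retains cells in the marrow, overlapped, at differences of -0.20 and -0.16. Il1b, the inflammatory cytokine, was at 6.12 to 6.70 in the high tumours and reached 8.91 in tumor_31 and 10.07 in tumor_9500, with the other low tumours at 6.60 to 7.24.

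**Figure D5:**
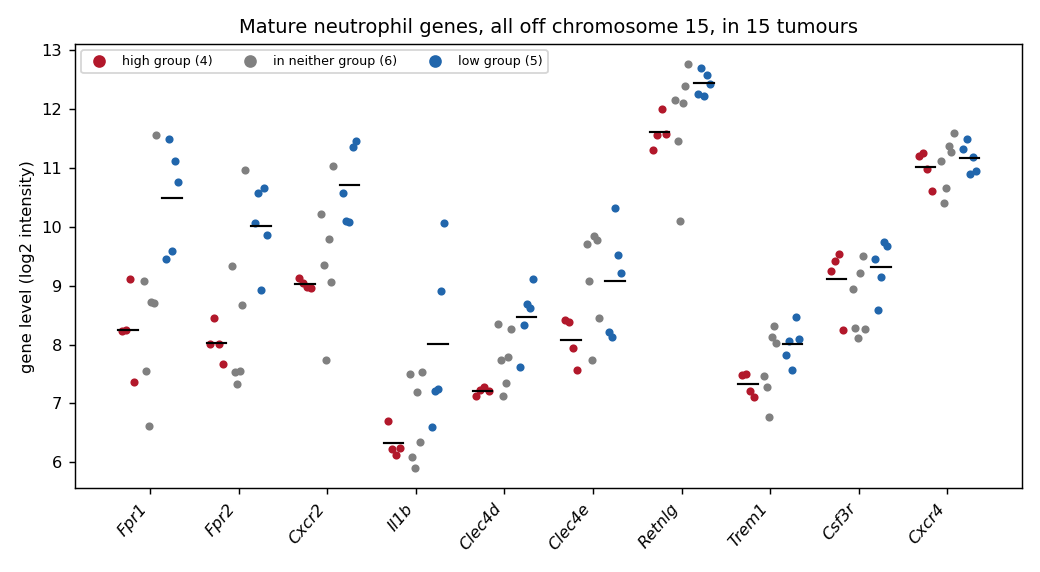
Level (log2 intensity, vertical axis) of 10 mature neutrophil genes in 15 tumours, 1 point per tumour, with the 4 high tumours in red, the 6 in neither group in grey, the 5 low tumours in blue and short bars at the means of the high and low groups. In Fpr1, Fpr2, Cxcr2, Clec4d, Retnlg and Trem1 all red points lie below all blue points, while the grey points spread over both.

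Granule genes are made at successive stages of neutrophil development, and the lists named for the earlier and the later stage had medians of opposite sign. The earlier list also holds the transcription factor genes Cebpe and Gfi1 and the ribonuclease gene Rnase2a. The later list also holds the oxidase gene Cybb and the receptor gene Ltb4r1. The medians are therefore not a contrast of granule proteins alone. The secondary granule list, named for granules made after the promyelocyte stage, had 9 of 12 detected genes lower. Its median was -0.17, and -0.0972 without tumor_9509. Mmp8, the neutrophil collagenase, read 6.71, 7.01, 8.97 and 7.62 in the high tumours and 9.75, 10.10, 8.80, 10.78 and 10.63 in the low tumours (-2.43 ± 0.49, limma adjusted p = 0.251), and tumor_9492 and tumor_9523 overlapped. Ltf, lactoferrin, differed by -1.22 (limma adjusted p = 0.531). S100a8 and S100a9, the bright calprotectin genes, differed by -0.10 and 0.00. Chil3 and Cybb of the same list went the other way, at 0.72 and 0.92, both with overlap (limma adjusted p = 0.683 and 0.900). The primary granule list, named for granules made by promyelocytes, had 7 of 9 detected genes higher (77.8%), against 59.0% of genes off chromosome 15. Its median was 0.17, and 0.0661 without tumor_9509. Mpo, myeloperoxidase, read 13.16, 13.10, 13.04 and 12.96 against 13.04, 12.48, 13.06, 12.87 and 13.10, and Ctsg, cathepsin G, differed by 0.15. Both promyelocyte enzymes were above 11 in all 9 tumours. Neutrophil elastase, listed under its older symbol Ela2, was higher by 1.16 (limma adjusted p = 0.579).

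Lists of targets and partners of Myc elsewhere in the genome had small median differences, with single members in both directions. Of 27 detected genes of Myc-driven ribosome biogenesis, 21 were higher (77.8%), against 59.0% of genes off chromosome 15. Their median was 0.16, and 0.0527 without tumor_9509. The largest difference of this list was that of Nop16, 0.50, and the lowest that of Ccnd2, -0.39, both with overlap. Npm1, nucleophosmin, read 12.21, 12.08, 11.94 and 11.94 against 12.07, 11.99, 12.18, 11.86 and 12.08, with a difference of 0.00, and Odc1, ornithine decarboxylase, was higher by 0.36 with overlap. In the Myc network, Mxd1, which pairs with Max and opposes Myc, read 8.61, 8.49, 8.35 and 8.46 against 8.70, 9.06, 8.66, 9.70 and 9.31 (-0.61 ± 0.21, limma adjusted p = 0.610). Every high tumour was below every low tumour for Mxd1, which is 11.1% of the list, against 1.03% of all detected genes. The other 8 detected network genes overlapped. Among them Mxi1 differed as much as Mxd1 but in the opposite direction, by 0.61 (limma adjusted p = 0.754). The median of the network list was 0.0297. Mxd1 lies on chromosome 6, which was raised in tumor_9509, tumor_9523 and tumor_31 of the low group and not in tumor_36 and tumor_9500. The part of chromosome 6 in the Mxd1 difference was not tested. No member of these lists passed the adjusted threshold.

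Proliferation genes had slightly higher means. Of 19 S-phase genes 17 were higher (89.5%, median 0.16, and 0.0935 without tumor_9509). Of 20 G2 and mitosis genes 14 were higher (70.0%, median 0.15, and 0.0703 without tumor_9509). Off chromosome 15, 59.0% of detected genes were higher, with a median of 0.0425, so the G2 and mitosis share is not far from that. Gins2, part of the replicative helicase, was above 8.98, the highest low tumour, in all 4 high tumours, and tumor_9509 was the lowest at 8.165 (difference 0.48 ± 0.18, limma adjusted p = 0.670). Mki67, a marker of cycling cells, differed by -0.17. No member passed the adjusted threshold.

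Genes higher in the high tumours off the chromosome with the smallest p were Map7, Dnah8, Rab34, Fgfrl1, Nmral1, Arl11, Chaf1b and Xxylt1. Map7, a microtubule-associated protein, read 6.79, 6.98, 6.98 and 6.83 in the high tumours and 5.96, 5.83, 6.22, 6.22 and 5.76 in the low tumours (0.90 ± 0.14, limma adjusted p = 0.129). Every low tumour was under the detection limit of 6.41 for Map7, as for Rab34, so the low side of these differences is read from dim signal. Dnah8, an axonemal dynein heavy chain, read 8.69, 8.44, 8.41 and 8.02 against 7.29, 7.58, 7.38, 7.28 and 6.73 (1.14 ± 0.19, limma adjusted p = 0.129). Neither gene overlapped between the groups, and neither passed the threshold. Chaf1b, a subunit of the chromatin assembly factor, was higher by 0.65, and with Nmral1 and Xxylt1 it lies on chromosome 16, which stood high in tumor_9492.

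Kdm6a, the X-linked H3K27 demethylase, read 5.25, 5.28, 6.997 and 5.42 in the high tumours and 7.06, 6.92, 7.56, 8.22 and 4.94 in the low tumours (-1.20 ± 0.59, limma adjusted p = 0.791). Of the 4 tumours below 6, 3 were in the high group and 1, tumor_9500, in the low group. Jak1 and Kit, tyrosine kinases of cytokine signalling, differed by -0.13 and 0.20 and overlapped.

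The other chromosomes were compared by a test that could hardly return a call at this size. Each chromosome value was set against every split of the 9 tumours into 4 and 5 (exact permutation test, two-sided, smallest possible p = 0.00794), with adjustment over 19 chromosomes. A single chromosome at the smallest p has an adjusted p of 0.151, and at least 4 chromosomes at that p would be needed to fall under 0.05. None reached it here, and the smallest adjusted p was 0.226. On 16 of the 19 chromosomes the difference was under 0.05 in size. Chromosome 6 had the largest, -0.153 (-0.0351 ± 0.0250 against 0.118 ± 0.136, SD, exact permutation p = 0.111, adjusted p = 0.352), with tumor_9509, tumor_9523 and tumor_31 raised and tumor_36 and tumor_9500 not. Chromosome 19 differed by 0.118 (exact permutation p = 0.397, adjusted p = 0.615): tumor_9492 stood at -0.276 and the other 3 high tumours between 0.120 and 0.141. Chromosome 16 differed by 0.0909 (exact permutation p = 0.159, adjusted p = 0.369), with tumor_9492 at 0.294 and the other 3 high tumours between -0.0137 and 0. Chromosomes 1, 10 and 11 had an unadjusted exact permutation p under 0.05 (0.0238, 0.0238 and 0.0397) with differences of -0.0198, 0.0144 and -0.0142, and adjusted p-values of 0.226, 0.226 and 0.251. The values of these chromosomes are relative to all genes, chromosome 15 included; relative to genes off chromosome 15, chromosome 10 reached the smallest p the splits allow (exact permutation p = 0.00794, adjusted p = 0.151), with a difference of 0.022.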

How the data were processed

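Total RNA from 15 spleens with APL was amplified, labelled with biotin and hybridised to 1-colour exon arrays, per the labels' protocols. In the table the authors deposited, each probeset has 1 intensity on each array. These values run from 2.38 to 19380.5 and are all positive, which shows a linear scale with no centring. Per the submitters' processing notes, RMA (background correction, normalization between arrays and probe summary) and the mm9 build were used, with no version given. Scanner files were not used here, so background correction and scan dates could not be varied or checked. The number of arrays limits the precision.

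Intensities were log2 transformed. The platform annotation gave 1 gene symbol to 208397 of 229581 probesets, which were used, several symbols to 3965 and none to 17219. Symbols were set against the GRCm38.p6 gene table: 14132 were current, 2124 were renamed and 43 kept as listed. That table gave chromosome and gene order only, since its build differs from mm9, and no coordinate or sequence is printed. Of 16277 genes, each the median over its probesets, 9766 were detected. Genes were compared with limma (lmFit and eBayes, Benjamini-Hochberg over all detected genes), and chromosome values with exact permutation tests. Off chromosome 15 the text names, in each direction, at most 10 genes that pass with at least 3 probesets, or otherwise the 8 of smallest p; on it, the 12 largest and 6 lowest differences, the 6 brightest, and fixed genes (Myc, Csf2rb, Csf2rb2, Il7r, Rad21, the Ly6 genes, Ep300, Pim3 and Rac2). Per list up to 2 members with the largest difference and the 2 brightest were eligible, with Kdm6a, Jak1, Kit, Mpo and Ctsg. Espl1, Tomm22, Cyc1, Copz1, Cby1, Tmbim6, Nup155, Mxd1, Gins2 and the other genes outside this rule were chosen after their values were seen. The tumours, the gene lists and the tests were chosen with earlier results of these data known.

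Alternatives were the mean over probesets, other filters on dim genes and probesets, centred or quantile normalized arrays, each tumour left out, 4-digit tumour numbers only, and other fits, limits and adjustments. Adding tumor_9514 and the reference without chromosome 15 were chosen after seeing the data. Tested on simulated data over 9766 genes for this comparison, limma recovered 75 of 100 genes shifted by 1 and 99 of 100 shifted by 2 log2 units, with 11 other calls. Both sets were shifted together, and each gene varied independently with a normal spread. The adjusted threshold was therefore easier to reach than with few shifted genes. These rates check the fit and do not give the power of the comparison in the tumours. Computations ran in Python 3.11.15 (pandas 2.3.3, numpy 2.4.6, matplotlib 3.10.9) and R 4.3.3 (limma 3.58.1).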

Additional observations from a re-analysis of the deposited data

Results flagged for a closer look

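Within the high and low groups, 262 sets of 4 or 5 values (chromosomes and named genes) were checked for a tumour whose gap to the nearest other value filled most of the range of its group, and 24 had one; chance gives about 1 in 20.

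Tumor_9509 was the lowest of the low group by such a gap in 12 genes: Rad21 (9.83), Eif3h (10.92), Ywhaz (10.79), Tuba1c (11.04), Eif3l (8.37), Pmm1 (7.13), Csf2rb (7.13), Rpl8 (10.78), Atf1 (9.385), Nsmce2 (8.10), Gins2 (8.165) and Nmral1 (7.73). Its array also stood at 0.0550 on chromosome 7, above the other low tumours (0 to 0.0124), and at -0.0840 on chromosome 16, below them (-0.0199 to 0.0026). For Hnrnpa1, tumor_31 was the lowest at 10.33, with the other low tumours at 10.83 to 10.92.

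In the high group tumor_9492 stood alone at 0.294 on chromosome 16, at -0.276 on chromosome 19, at 9.93 for Pphln1, at 8.79 for Cby1, at 8.39 for Akr1e1 and at 6.997 for Kdm6a. The other 3 high tumours were at 9.60 to 9.65 for Pphln1, at 8.57 to 8.59 for Cby1, at 4.78 to 5.05 for Akr1e1 and at 5.25 to 5.42 for Kdm6a. Tumor_26 was at 0.0303 on chromosome 7 and tumor_9520 at -0.0599 on chromosome X. In the low group tumor_36 was at -0.136 on chromosome 2, where the other 4 low tumours were at 0.0155 to 0.0615.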

How the results depend on the processing

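Over 1150 recomputed values 0 changed sign with a call. No gene or other chromosome was called in the main setting, so such a change could hardly occur and this count is no check of stability. The median difference of chromosome 15 genes was 0.294, and 0.185 with no filter on dim genes. The block of gene order with the lowest difference had 0.166, against 0.107 with no filter and 0.236 with a filter at the 60th percentile. The mature neutrophil median was -1.13, and -1.52 with the mean over probesets. Off chromosome 15, 0 genes passed, against 3 with arrays centred. Leaving out single tumours gave 0 to 3 genes off chromosome 15, 0.224 to 0.337 for chromosome 15 genes, 0.158 to 0.177 for the lowest block, -1.35 to -1.03 for the neutrophil list and 0 other chromosomes, a count the few splits nearly fix. Chromosome 15 genes without overlap numbered 83 to 150, the most within the tumours with 4-digit numbers. That subset has fewer tumours in each group, so more genes separate there by group size alone. The share over all detected genes is given for none of the alternatives, so these counts cannot be set against each other. No paired analysis was possible because both groups come from 1 labelled group and share no replicate numbers. The cause of these shifts was not tested. Dim genes limit the depth of the comparison, as genes near the detection limit showed a smaller difference. The split rests on 9 arrays, and the low group lost tumor_31 and tumor_9500 with no filter, where their values were -0.0321 and -0.0478. With arrays centred tumor_9508 (0.0660) and tumor_33 (0.0619) passed the upper limit, and with quantile normalization tumor_9508 did (0.0511).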

Other observations

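Among lists of other spleen cells and programmes only Stag2, of the counterparts of human AML driver genes, separated the groups. It was lower in every high tumour (-0.26, limma adjusted p = 0.805), which is 4.17% of its list, against 1.03% of all detected genes. Of 4 detected B cell genes 3 were lower (median -0.35, and -0.201 without tumor_9509). Of 4 detected NK cell genes 2 were higher and 2 lower (median 0.15, and 0.0665 without tumor_9509). All 9 detected T cell genes had the lower mean in the chromosome 15 high tumours, with a median of -0.21, and their summed intensity overlapped (1314 to 1952 against 1304 to 3258). Of 7 MHC class II genes 6 were lower (median -0.29, and -0.191 without tumor_9509), led by H2-Eb1 and H2-Aa, which present peptides to helper T cells, at -0.54 and -0.53 (limma adjusted p = 0.834 and 0.855). Of 14 immediate early genes 11 were lower, with a median of -0.24. Erythroid, monocyte, red pulp macrophage, megakaryocyte and eosinophil, basophil and mast cell lists had medians between -0.0313 and 0.147. Without tumor_9509 these lay between -0.0736 (monocyte) and 0.247 (erythroid). In the last of these, Prg2, the major basic protein of eosinophil granules, ran from 8.34 in tumor_36 to 12.53 in tumor_31 within the low group. Glycolysis and unfolded protein genes had medians of 0.18 and 0.14, which were 0.0532 and 0.0582 without tumor_9509. None of these genes passed limma's adjusted threshold. For comparison, 3902 of all 9766 detected genes had the lower mean in the high tumours, and the median difference was 0.0482.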
